A study of Mus musculus with 2 samples.

Results

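The miRNAs described here are the late-numbered ones of mouse helper T cells, those whose name carries a number of 1000 or above. They were chosen by name and by depth: every late-numbered miRNA with 20 or more reads summed over both libraries was taken, which gave 168 of the 549 late-numbered miRNAs listed and of 1125 miRNAs listed in all. The summed reads that chose them set a minimum level, so their presence is not a result.

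Small RNA was sequenced from 1 library of Th0 cells and 1 library of Th17 cells, the interleukin-17-producing helper lineage. Both began as naive CD4+CD62L+ T cells from spleens of female C57BL/6 mice, whose age the labels leave out, and both were kept in medium with 10% serum. Shared by both cultures were anti-CD28 at 1 µg/ml, anti-IL-4 at 5 µg/ml and anti-IFN-γ at 5 µg/ml, so the control also received costimulation and cytokine blockade. Th17 cells additionally received blocking antibodies to IL-12 and IL-2 (5 µg/ml of each) and the cytokines IL-23 and IL-6 (both 40 ng/ml), IL-1β (10 ng/ml) and TGF-β (2 ng/ml), and were grown for 6 to 7 days. For Th0 the labels state no culture time, so time and polarisation cannot be told apart. Triplicates are named in the series description, but each group has 1 column of reads here, so no test between the conditions could be made and every interval below covers counting error only. Being bulk samples, the libraries cannot separate fewer cells of a type from less RNA per cell.

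A mature miRNA is a short strand cut from a hairpin first by the nuclear Microprocessor (Drosha with Dgcr8) and then by Dicer, and it recognises targets mainly through its seed, bases 2 to 8. Numbers are given in order of discovery. Low-numbered miRNAs are mostly the abundant, conserved ones, while many late-numbered miRNAs were found by deep sequencing and are known only from rodents. Some are mirtrons, short introns whose ends form the hairpin after splicing and which bypass Drosha, and some lie inside small nucleolar or Cajal body RNAs (snoRNAs and scaRNAs), which guide chemical modification of other RNAs.

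The sequences below are those the results turn on, from RefSeq on GRCm38.p6, which matched 145 of the 168 by name. Each is written 5′ to 3′ with its seed in capitals. The first 6 are the abundant ones.
miR-1839-5p: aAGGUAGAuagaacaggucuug
miR-3074-5p: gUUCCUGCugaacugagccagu
miR-1198-5p: uAUGUGUUccuggcuggcuugg
miR-1843a-5p: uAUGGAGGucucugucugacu
miR-1843b-5p: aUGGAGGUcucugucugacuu
miR-3968: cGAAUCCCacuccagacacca

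The next set differed most between the libraries, the first 5 higher in Th17 and the last 4 lower, again with the seed in capitals.
miR-7649-3p: uCUCUCCAgcacugcuuguuucu
miR-7213-5p: aCUGGGUCucuugagguagc
miR-7213-3p: uACCUCAAgagagccagucu
miR-1247-5p: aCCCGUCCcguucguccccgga
miR-5119: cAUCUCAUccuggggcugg
miR-7683-5p: uUCCGUGUuucgucugaccacu
miR-1968-5p: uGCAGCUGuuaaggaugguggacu
miR-6546-5p: aGGCGCCUcugagcuugugcuugu
miR-1983: cUCACCUGgagcauguuuucu

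Together the 168 miRNAs took 43945 of 8358010 listed reads in Th0, or 0.526% (exact binomial 95% interval 0.521 to 0.531%), and 66320 of 11975371 in Th17, or 0.554% (0.550 to 0.558%). With counts scaled to each library's sum of listed reads (CPM), the total was 1.05-fold higher in Th17 (1.04 to 1.07). Few of them carried it. The 3 most abundant held 56.3% of these reads in Th0 and 56.2% in Th17. Only 44 had a mean of at least 10 CPM and 9 of at least 100 CPM, whereas 53 were below 2 CPM, and the median of the 168 was 3.29 CPM against 42.7 CPM for the 379 other miRNAs with 20 reads.

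miR-5099 was the most abundant, with 12836 reads (1536 CPM) in Th0 and 15225 reads (1271 CPM) in Th17. Its precursor lies outside annotated hosts at chr12:36816205-36816278, plus strand, in mm10 (positions from GENCODE M21). It was 1.21-fold lower in Th17 (fold of Th17 over Th0 0.828, interval 0.809 to 0.848), and without it the other 167 summed to 1.15-fold higher (1.13 to 1.16). miR-1839-5p, from an exon of the noncoding RNA 2900076A07Rik at chr7:81529916-81529988, had 6146 reads (735 CPM) in Th0 and 11619 (970 CPM) in Th17, or 1.32-fold higher (1.28 to 1.36). Its minor arm miR-1839-3p was higher by 1.62-fold (1.37 to 1.91), on 207 and 480 reads. All but 1 of the 9 members above 100 CPM lay within 2-fold of equality.

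miR-3074-5p is encoded on the strand opposite miR-24 at both of its loci, in an intron of Fancc, a Fanconi anaemia gene, at chr13:63301199-63301283 and at chr8:84208825-84208907, both minus strand. It had 5741 reads (687 CPM) in Th0 and 10398 (868 CPM) in Th17, or 1.26-fold higher (1.22 to 1.31). miR-24-3p, made from the other strand of these loci, had 1013 CPM in Th0 and 892 CPM in Th17, or 0.880 of the Th0 level (0.856 to 0.906), and miR-24-2-5p had 989 and 649 CPM (fold 0.656, interval 0.636 to 0.677). miR-24-1-5p, with 100 and 162 reads, had an interval that includes 1 (0.876 to 1.47). The minor arms of the antisense hairpins lay on the lower side too: miR-3074-1-3p had 53 and 48 reads (fold 0.632, interval 0.419 to 0.952) and miR-3074-2-3p had 67 and 52 (0.542, 0.370 to 0.790). At these loci, therefore, the abundant antisense arm was higher in Th17 while its 2 minor arms and both of these miR-24 species were lower. The sources used here do not say how reads were assigned to a strand or to several loci.

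Among the other abundant members, miR-1198-5p, from an intron of Gripap1 on chromosome X, had 221 CPM in Th0 and 217 CPM in Th17, with an interval of the fold (0.926 to 1.04) that includes 1. miR-3968 had 254 CPM in Th0 and 174 CPM in Th17, a fold of 0.683 (0.643 to 0.726). miR-5121 had 121 and 156 CPM, 1.29-fold higher (1.19 to 1.39), and miR-3068-3p had 68.8 and 88.7 CPM, likewise 1.29-fold higher (1.16 to 1.43). miR-3535 went the other way, from 93.6 to 57.5 CPM (0.615, 0.554 to 0.682). miR-1948-3p, from an intron of Ttc39c, was the 1 member above 100 CPM that reached 2-fold: 580 reads (69.4 CPM) in Th0 and 1752 (146 CPM) in Th17, or 2.11-fold higher (1.92 to 2.32). Its other arm, miR-1948-5p, was at 22.5 and 31.9 CPM, 1.42-fold higher (1.19 to 1.70).

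**Figure D1:**
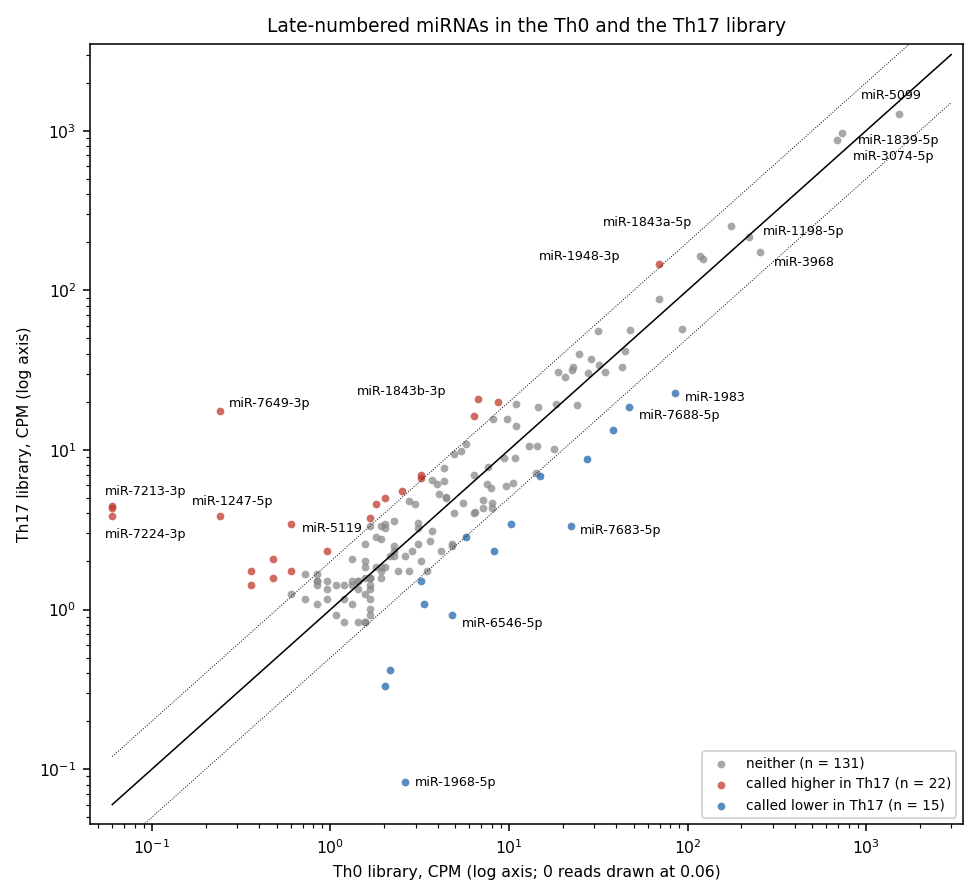
CPM of each of the 168 late-numbered miRNAs in the Th0 library (x axis, log) and the Th17 library (y axis, log), in red where the fold was at least 2 in favour of Th17 and its counting interval excluded 1 (22), in blue for the same in favour of Th0 (15) and in grey otherwise (131), with dotted lines at 2-fold. The abundant members lie close to the line of equality, and the points far from it, such as miR-7649-3p, miR-7213-3p and miR-1968-5p, are at a few CPM or below in 1 library.

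A miRNA was called when its fold was at least 2 and its exact conditional interval (Clopper-Pearson, 95%) excluded 1. By that rule 22 of the 168 (13.1%) were higher in Th17, against 11.2% of all 547 miRNAs with 20 or more reads, and 15 (8.93%) were lower, against 13.3%. A further 2 members, miR-7670-3p and miR-6769b-3p, were above 2-fold with intervals that include 1. At a mean of at least 10 CPM, 4 of 44 were higher (background 6.71%) and 6 were lower (background 13.1%). Intervals lay above 1 for 48 (28.6%, background 31.8%) and below 1 for 35 (20.8%, background 35.3%), and 85 included 1. The median log2 ratio, with 0.5 CPM added to both values, was 0.077 for the 168 and -0.032 for all 547. The share of higher calls is near the background and is not a result about these miRNAs. The members are shallower than the rest, and the median half-width of their log2 interval was 1.29 below 2 CPM, 0.73 from 2 to 10 CPM, 0.28 from 10 to 100 CPM and 0.088 above that.

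The 4 highest log2 ratios belonged to members numbered in the 7000s. miR-7649-3p had 2 reads (0.239 CPM) in Th0 and 211 (17.6 CPM) in Th17, a ratio of 73.6 with a wide interval (20.1 to 612). Its precursor overlaps an exon of the noncoding gene Gm15987, opposite Clec2g, which encodes a C-type lectin (chr6:128974840-128974895, minus strand). Both arms of mir-7213 were at 0 reads in Th0, with 53 reads of miR-7213-3p (4.43 CPM) and 52 of miR-7213-5p (4.34 CPM) in Th17. A count of 0 in Th0 allows up to 3 reads, or 0.359 CPM, and the arms were 12.3-fold and 12.1-fold above that level. Their exact intervals, which also cover counting error in Th17, began at 9.68 and 9.49. mir-7213 lies in an intron of Pdgfb, which encodes the B chain of platelet-derived growth factor (chr15:79998970-79999026, minus strand). miR-7224-3p, from an intron of the galactosyltransferase gene B3galt1 (chr2:67675457-67675516, plus strand), had 0 and 46 reads (3.84 CPM). That is 10.7-fold above the level of 3 reads, with an exact interval that began at 8.36. Members with few reads in 1 library passed the minimum through the other and so had to differ. Of the 22 higher members 15 had under 20 reads in Th0, these 3 and miR-7649-3p among them, and of the 15 lower members 6 had under 20 reads in Th17. The ratios of these members are a description only. In both libraries 20 reads were reached by 7 higher members (miR-1948-3p, miR-6538, miR-1843b-3p, miR-3964, miR-1249-3p, miR-6948-3p and miR-3079-5p) and 9 lower ones.

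The mir-7213 hairpin is shown because both of its arms appeared, in nearly equal numbers, in 1 library only. Its 2 mature arms are in capitals.
mir-7213: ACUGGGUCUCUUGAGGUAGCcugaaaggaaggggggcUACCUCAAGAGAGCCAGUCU

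Ltb encodes a lymphotoxin subunit, a cytokine of the TNF family made by lymphocytes, and the tailed mirtron mir-6973a lies in one of its introns (chr17:35194972-35195049, plus strand). miR-6973a-3p had 15 reads (1.79 CPM) in Th0 and 55 (4.59 CPM) in Th17, or 2.56-fold higher (1.43 to 4.88). It stayed below 5 CPM in both libraries.

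miR-1247-5p, from an exon of the noncoding Dio3os in the imprinted Dlk1-Dio3 region (chr12:110278048-110278129, minus strand), had 2 reads in Th0 and 46 in Th17, a ratio of 16.1 (4.20 to 137). miR-5119, in an intron of the transcription elongation kinase gene Cdk12 (chr11:98262606-98262662, plus strand), had 5 and 41 reads (5.72-fold, 2.26 to 18.6). miR-3101-5p, overlapping an exon of the gene of the small GTPase Rab4b, had 4 and 25 (4.36-fold, 1.51 to 17.2), and miR-3474, in an exon of Actr5, had 3 and 17 (ratio 3.95, 1.14 to 21.1). All of these were under 1 CPM in Th0, so their folds are poorly bounded from above.

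Higher members with more reads gave narrower intervals. miR-3964 had 53 reads (6.34 CPM) in Th0 and 194 (16.2 CPM) in Th17, or 2.55-fold higher (1.88 to 3.53). miR-6538, whose sequence was the richest in G and C of all members at 94.7%, had 73 and 240 reads in Th0 and Th17, 2.29-fold higher (1.76 to 3.02), and lies in an intron of the ubiquitin ligase gene Rnf144a. miR-1249-3p had 27 and 84 reads (2.17-fold, 1.39 to 3.49), and miR-3079-5p 21 and 66 (2.19-fold, 1.33 to 3.77). The remaining higher members were miR-7030-3p from a Rab35 intron (2.93-fold), miR-6956-3p from Triobp (2.46-fold), miR-6946-3p from Sec24c (2.44-fold), miR-6899-3p from Klf7 (2.24-fold) and miR-6948-3p from Acin1 (2.07-fold), each with at most 80 reads in a library, and miR-1843b-3p, described with its paralog below.

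Of the lower members, miR-7683-5p had the clearest ratio: 185 reads (22.1 CPM) in Th0 and 40 (3.34 CPM) in Th17, or 6.63-fold lower (4.69 to 9.58). Its precursor is in an intron of Slamf7, a SLAM family receptor of natural killer and plasma cells (chr1:171641840-171641900, minus strand). miR-1968-5p, in an intron of Grtp1 (chr8:13189031-13189098, minus strand), had 22 reads in Th0 and 1 in Th17, with a ratio of Th0 over Th17 of 31.5 and an interval from 5.10 to 1301. miR-6546-5p had 40 and 11 reads, 5.21-fold lower (2.62 to 11.3). It lies in an intron of Fcgr3, a low-affinity Fc receptor of myeloid and natural killer cells, at chr1:171064591-171064652. miR-5107-5p, overlapping an exon of Cd74, which encodes the invariant chain of MHC class II in antigen-presenting cells, had 28 and 13 reads, 3.09-fold lower (1.55 to 6.49).

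The lower members with the most reads included miR-1983. It has no annotated host (chr13:21896918-21897049, minus strand) and had 708 reads (84.7 CPM) in Th0 and 271 (22.6 CPM) in Th17, or 3.74-fold lower (3.25 to 4.32). Nuclear transfer RNA genes were not among the small RNA classes compared with the precursors. Whether reads of miR-1983 or of other members are transfer RNA fragments was therefore not tested. miR-7688-5p had 46.9 and 18.5 CPM, 2.54-fold lower (2.15 to 3.01). miR-5114, in an exon of the desaturase gene Scd2, had 321 and 160 reads, 2.87-fold lower (2.371 to 3.497), and miR-1949 had 230 and 105 reads, 3.14-fold lower (2.48 to 3.99). miR-1956, in an exon of the cap-binding factor gene Eif4e, had 69 and 28 reads, 3.53-fold lower (2.25 to 5.69). The other lower members were miR-1191a (2.18-fold), miR-6539 in a Dock5 intron (3.01-fold), miR-5619-3p in Nudt9 (6.09-fold, on 17 and 4 reads), miR-7079-3p in the ribosomal protein gene Rpl13 (5.16-fold, on 18 and 5 reads), miR-3547-3p in Baiap3 (2.02-fold) and miR-8097 in Rnf19a (2.15-fold).

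**Figure D2:**
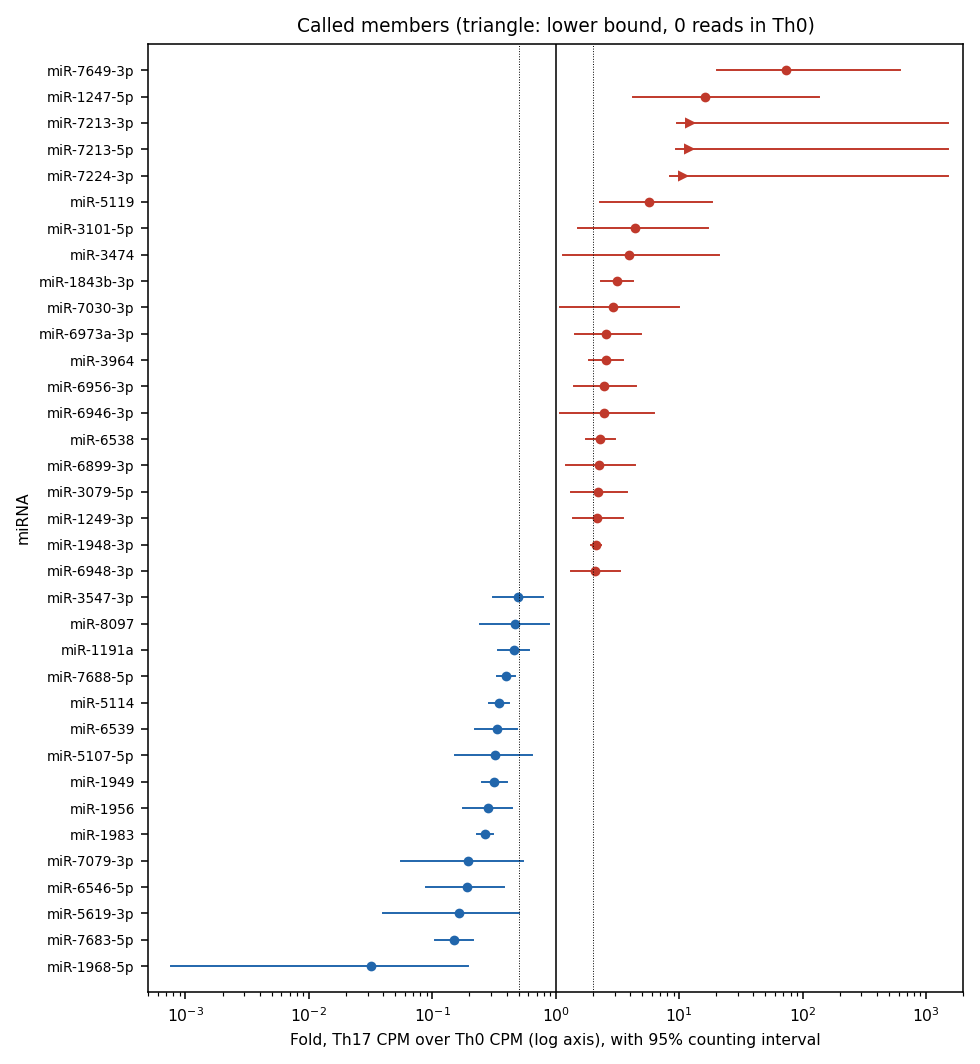
Fold of Th17 CPM over Th0 CPM (x axis, log) with its 95% counting interval for 35 of the 37 members called higher (red) or lower (blue), with dotted lines at 2-fold. Triangles mark the 3 members with 0 reads in Th0, drawn at the fold over 3 reads, which lies above the lower end of the interval. Their intervals have no upper end and are drawn to the right. Intervals are narrow for miR-1948-3p and miR-1983 and span more than 10-fold for miR-7649-3p, miR-1247-5p and miR-1968-5p.

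Positions were found for 145 of 150 precursors. Of these 81 (55.9%) lay in an intron and 46 (31.7%) overlapped an exon of a host gene on the same strand, against 55.1% and 21.9% of 274 precursors of other miRNAs with 20 reads. A precursor was classed as a mirtron when both of its ends lay within 5 bases of the ends of 1 intron of up to 1000 bases, and as a tailed mirtron when 1 end did. There were 8 mirtrons (5.52%) and 32 tailed mirtrons (22.1%), against 1 of each among the 274 others (0.365%). These classes overlap with the exon count, in which an exon of any annotated transcript counted, also of transcripts that retain an intron. mir-1982 and mir-7068, for example, are mirtrons that were placed in an exon. How far this raised the exon share was not tested. Of 68 members on the 3p arm with a sequence, 25 (36.8%) ended in CAG, the letters of a splice acceptor, against 2 of 147 others (1.36%). In the mirtron classes it was 18 of 28, which their definition favours, since a precursor end lies near an intron end. Among members of neither class it was 6 of 38 (15.8%). By name 80 members were 3p arms and 48 were 5p arms, whereas the other miRNAs had 178 and 187.

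The 10 mirtron members had a median log2 ratio of 0.47, with 5 intervals above 1 and 1 below, where the shares over all 547 miRNAs were 31.8% and 35.3%. With 10 members, nothing is read from these counts about the class. Those with the most reads were miR-1981-3p and miR-1981-5p from Marc2, at 29.0 and 31.8 CPM in Th0 and 37.2 and 33.8 CPM in Th17 (a fold of 1.29, 1.10 to 1.51, and 1.06-fold, 0.908 to 1.25). miR-7068-3p from Cherp had 92 and 231 reads, a fold of 1.75 (1.37 to 2.26), and miR-1982-3p from Oaz1 had 14 and 40 reads (1.99-fold, 1.06 to 3.97). miR-3547-3p was the member below 1. The 33 tailed mirtron members had a median of 0.14, with 9 intervals above 1, 1 below and 23 that included it, beside the same 31.8% and 35.3% over all 547 and with a median level of 2.39 CPM. They included miR-6996-5p, in an intron of the receptor gene Notch1, with 41 and 113 reads (1.92-fold, 1.33 to 2.82), miR-7046-3p from Rabac1 with 48 and 131 (1.90-fold, 1.36 to 2.71), and miR-6911-3p from Dazap1, the 1 lower, with 88 and 74 (0.587, 0.425 to 0.809). For miR-6989-3p from Map4k2 (153 and 231 reads) and miR-3082-3p from Stub1 (92 and 168) the interval included 1. The deepest tailed mirtron member was miR-5121 from Rpl13a, with 1015 of the class's 1977 reads in Th0 and 1873 of 3530 in Th17. It also overlaps a snoRNA and counts in the class below as well. The levels of the host transcripts are not measured by these libraries.

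Precursors of 10 members overlapped a snoRNA or scaRNA on the same strand, and their median log2 ratio was 0.43, with 6 intervals above 1, 1 below and 3 including it (over all 547, 31.8% above and 35.3% below). They come from 8 precursors, among them the paralogs of miR-1843, and nothing is read from the counts about the class. miR-5121 lies in Snord33, a box C/D snoRNA of the Rpl13a gene. miR-3084-3p, from Snora19 and its copy Gm23658, had 45 and 118 reads (1.83-fold, 1.29 to 2.64), and miR-6516-5p, from a scaRNA in Snhg20, had 31 and 78 (1.76-fold, 1.14 to 2.76). miR-1291 from Snora34 went the other way, with 40 and 30 reads (0.523, 0.315 to 0.862). miR-3535 matched the snoRNA gene Gm24148 over its full length of 26 bases. Reads of such members cannot be told from fragments of the snoRNA or scaRNA itself. In all 50 of 145 sequenced members matched an annotated transcript that is not a miRNA, against 72 of 303 others. Only 11 of these members and 2 of these others matched a small RNA. Further matches were to a transcript of the miRNA's own host gene, such as that of miR-1306-5p to Dgcr8.

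**Figure D3:**
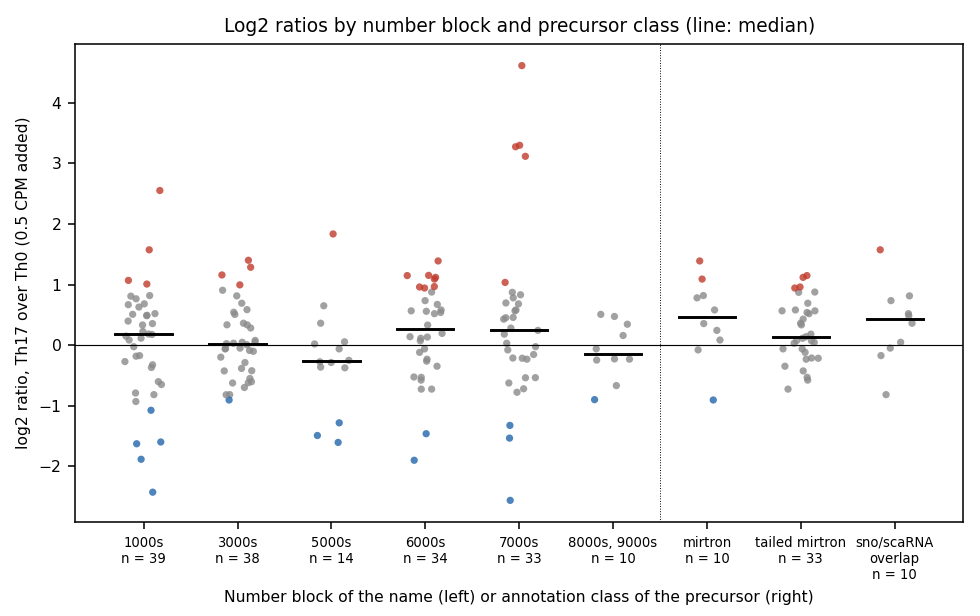
Log2 ratio of Th17 over Th0 (y axis, 0.5 CPM added) for each member, by block of its number (left) and by the class of its precursor (right), with the median as a line and called members in red (higher) or blue (lower). Medians run from -0.26 in the 5000s to 0.47 for mirtrons, with the 1 member of the 9000s (0.51) drawn together with the 8000s, and the 4 largest ratios are in the 7000s.

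By number, the 39 members in the 1000s had a median log2 ratio of 0.18, the 38 in the 3000s 0.018, the 14 in the 5000s -0.26, the 34 in the 6000s 0.26 and the 33 in the 7000s 0.25. The 9 in the 8000s had a median of -0.23, and the single one in the 9000s, miR-9769-3p, stood at 0.51. Within every block with more than 1 member some members were above and some below 0. The 1000s held 15307 reads in Th0 and 26755 in Th17, and the 5000s, with miR-5099, held 14866 and 18150. Median GC content was 54.5% over the 145 sequenced members (range 30.0 to 94.7%) and 47.6% over 303 others. The first base was U in 42.8% and 38.3%, and median length was 22 bases in both.

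The paralogs mir-1843a, in Scarna3b within Dcaf5 (chr12:80391613-80391677, minus strand), and mir-1843b, in Scarna3a within the ubiquitin ligase gene Cop1 (chr1:159340358-159340423, plus strand), give nearly the same 5p arm. As the sequences above show, miR-1843b-5p begins 1 base further in, and they share 20 of 21 bases while their seeds are offset. miR-1843a-5p had 176 CPM in Th0 and 253 CPM in Th17 (a fold of 1.44, 1.35 to 1.53), and miR-1843b-5p 118 and 165 CPM (1.40-fold, 1.30 to 1.52), so the intervals overlap. Their 3p arms, which differ by 2 edits when unpaired ends are ignored, had ratios whose intervals do not overlap. miR-1843a-3p had 288 reads (34.5 CPM) in Th0 and 366 (30.6 CPM) in Th17, a fold of 0.887 (0.758 to 1.04), while miR-1843b-3p had 56 and 251 reads, 3.13-fold higher (2.33 to 4.26). Assignment of reads between the 5p arms is uncertain, since the sources used here do not say how ends were treated. The same holds for the 3p arms, which differ by only 2 edits. Both precursors also lie in scaRNAs, whose fragments cannot be told from their reads. The sequences of the 3p arms are given here.
miR-1843a-3p: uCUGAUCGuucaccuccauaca
miR-1843b-3p: cCGAUCGUuccccuccauac

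Arm use was measured for 47 late-numbered precursors with both arms listed and at least 20 reads in each library, 24 of them mainly 5p and 23 mainly 3p in Th0. The median share of the major arm in Th0 was 93.9%, and 97.7% over 188 other precursors. Moves of at least 10 percentage points, with separate intervals, were found in 0 of the 47 and in 6 of the 188. Smaller shifts with separate intervals appeared in 4 of the 47, and in opposite directions for the 2 paralogs: for mir-1843a the 5p share went from 83.6% (81.8 to 85.3%) in the Th0 library up to 89.2% (88.1 to 90.3%) in the other, and that of mir-1843b was 94.6% (93.1 to 95.9%) and 88.7% (87.4 to 90.02%). mir-1948 moved from 24.5% (21.5 to 27.7%) to 17.9% (16.3 to 19.6%), and mir-3074, over both of its loci, from 98.0% (97.6 to 98.3%) to 99.0% (98.8 to 99.2%). Small shifts separate more easily at higher depth, and these smaller shifts were not counted over the 188 others. The 4 of 47 is therefore not a result about late-numbered precursors. The mirtron mir-1981 used both arms almost equally, with 52.4% (47.9 to 56.8%) and 47.6% (44.2 to 51.0%) of reads on the 5p arm. In mir-1306, which lies in an exon of Dgcr8, the gene of the Microprocessor subunit itself, the 5p share was 81.1% (76.1 to 85.5%) and 88.0% (84.5 to 91.0%), with overlapping intervals. The largest apparent shifts, in mir-7687 (66.7 and 37.5%) and mir-3098 (69.0 and 46.7%), rest on 21 to 45 reads and their intervals overlap.

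**Figure D4:**
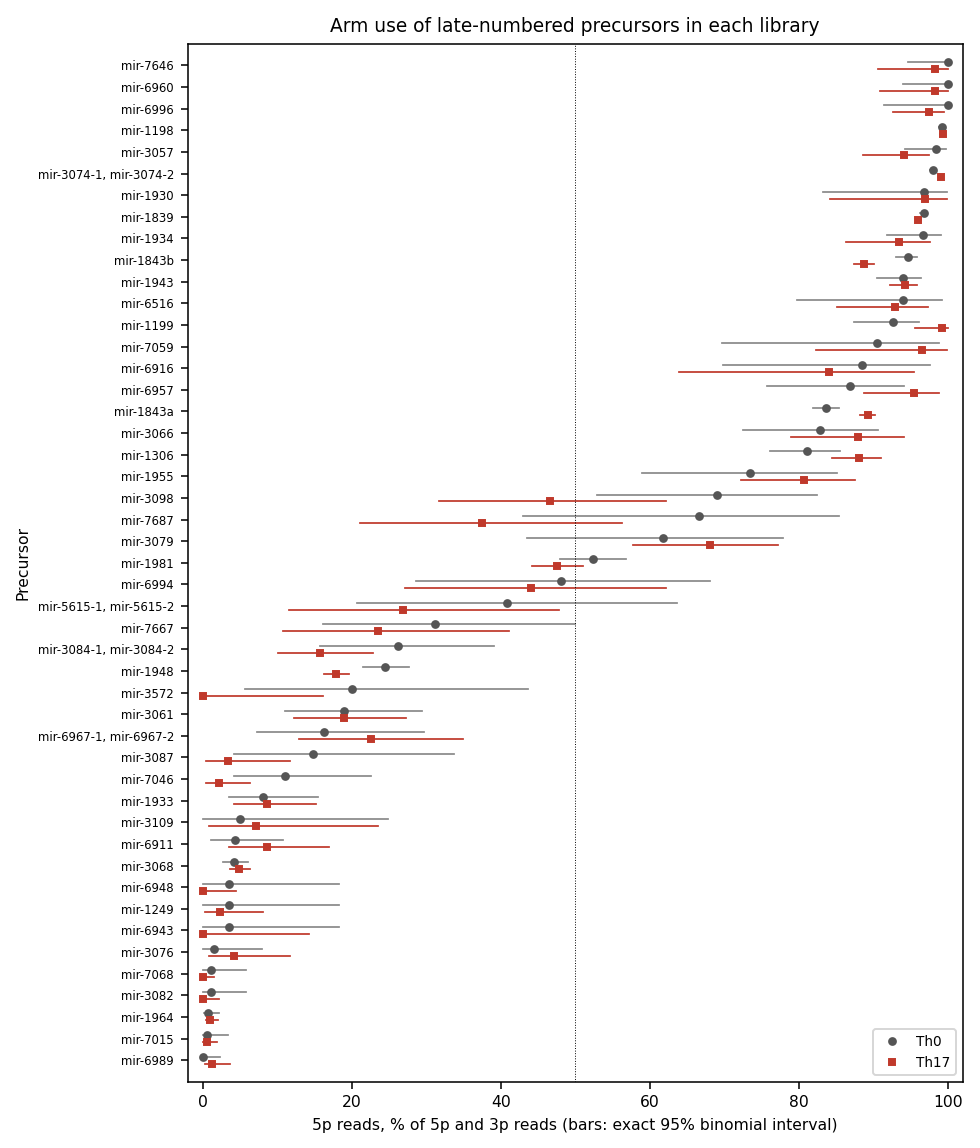
Percentage of a precursor's arm reads that came from the 5p arm (x axis) in Th0 (grey circles) and Th17 (red squares) for 47 late-numbered precursors, with exact 95% binomial intervals as bars. Most precursors sit near 0 or 100% in both libraries, and mir-1981 sits near 50%. The well-covered mir-1843a and mir-1843b differ from their Th0 values in opposite directions and lie closer to each other in Th17.

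Seeds were rarely shared. The 145 sequenced members had 142 distinct seeds, and 137 members shared theirs with no other member and with no sequenced miRNA numbered under 1000 that had 20 or more reads. The 3 shared pairs were miR-1943-5p with miR-6967-5p, miR-3077-3p with miR-7661-3p, and miR-7023-3p with miR-7068-3p. miR-3473d had the seed of miR-674-5p and miR-7670-3p that of miR-211-5p, and 0 had the seed of any of the 10 most abundant miRNAs. The 3 pairs are printed with the seed in capitals.
miR-1943-5p: aAGGGAGGaucugggcaccugga
miR-6967-5p: cAGGGAGGgauaaagaccagu
miR-3077-3p: cUGACUCCcugcuucuccgcag
miR-7661-3p: uUGACUCCcaguuucucucugc
miR-7023-3p: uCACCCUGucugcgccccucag
miR-7068-3p: uCACCCUGgacugacucucag

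Within pairs the levels differed. miR-1943-5p had 31.6 CPM in Th0 and 55.8 CPM in Th17 (a fold of 1.77, 1.53 to 2.04), while miR-6967-5p had 8 and 14 reads. miR-7661-3p had 40 and 31 reads (0.541, 0.327 to 0.887) and miR-3077-3p 11 and 17. miR-7068-3p is given with the mirtrons, and miR-7023-3p had 17 and 39 reads with an interval that includes 1.

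A chosen list of 12 late numbers that are also used for human miRNAs, rather than of all such numbers, was looked up. Of these 12 numbers 5 had members, 8 miRNAs in all. Of these 8 miRNAs 3 had intervals above 1 (miR-3074-5p, miR-1249-3p and miR-1247-5p), 3 below (both miR-3074 minor arms and miR-1306-3p) and 2 included it. Over all 547 miRNAs the shares were 31.8% above and 35.3% below. With 8 members, several of them arms of mir-3074, nothing is read from these counts. miR-1306-5p had 232 and 361 reads (1.09-fold, 0.918 to 1.29) and miR-1306-3p 54 and 49 (0.633), with an interval below 1. miR-3064-5p had 14 and 19 reads. A further 5 miRNAs of these numbers were listed below 20 reads.

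At the minimum itself, miR-3474, miR-6769b-3p, miR-6953-3p, miR-7048-3p, miR-7091-5p and miR-7655-3p had 20 reads in sum, and just outside it miR-6913-3p (12 and 7 reads), miR-6932-3p (6 and 13) and miR-7036b-5p (10 and 9) had 19. Of the 168 members, 92 had 20 reads in both libraries, 34 in Th17 alone, 4 in Th0 alone and 38 in neither, the Th17 library being the deeper. The 381 late-numbered miRNAs below the minimum held 2102 reads, and 86 of them had a single read.

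The libraries carried 5 miRNAs chosen as T lymphocyte markers at high levels, from 2194 to 58347 CPM in Th0 and from 1153 to 65898 CPM in Th17. Of these, miR-155-5p (14346 and 31749 CPM) and miR-181a-5p (11156 and 22098 CPM) were higher in Th17 and miR-142a-3p (2194 and 1153 CPM) was lower. The ends of both ranges were arms of miR-142a, which is shared by blood cell lineages. Those levels therefore do not set T lymphocytes apart from other blood cells. miR-223-3p, a marker of myeloid cells, had 3.35 and 6.76 CPM, the erythroid miR-451a at 0.718 and 2.00 CPM, and both miR-144-3p (erythroid) and miR-124-3p (neural) at 0 and 0.167 CPM. The endothelial miR-126a-3p was at 47.7 and 14.9 CPM, of 3 epithelial markers miR-200b-3p was at 141 and 37.3 CPM, miR-141-3p at 134 and 100.4 CPM and miR-200c-3p, in the other direction, at 23.1 and 31.7 CPM, and the neural miR-9-5p was at 13.9 and 4.76 CPM. The liver and muscle markers were at or below 0.835 CPM. Markers therefore differed between libraries in both directions, and the myeloid miR-223-3p was higher in Th17. None was chosen as a marker of natural killer, plasma or antigen-presenting cells. Any part of cell content in the ratios of the members hosted in Slamf7, Fcgr3 and Cd74 was not tested.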

How the data were processed

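For each library the authors deposited read counts per mature miRNA, whole numbers that are not normalized, and TPM values, which per the file headers and values are the counts divided by 1 total per library, larger than the listed sum (9072995 for Th0 and 13070648 for Th17). The submitters' processing notes name the mm10 build. The sources used here do not give the trimming, the aligner, the annotation release or how reads fitting more than 1 miRNA were handled.

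Counts were divided by each library's listed sum (CPM), and a miRNA missing from 1 file counted as 0 reads. Folds have exact conditional 95% intervals (scipy 1.17.1, Python 3.11.15), tested on simulated data. Reads were amplified and carry no molecular identifiers, so they are not independent molecules: intervals and the limit of 3 reads for a count of 0 cover counting error only. TMM factors came from edgeR 4.0.16 (R 4.3.3). Sequences came from RefSeq (GRCm38.p6), positions from GENCODE M21, the same assembly as mm10.

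The members and lists were chosen with earlier results of these data known. The rule for named miRNAs took the 12 highest by mean CPM and the called ones. Where over 15 were called in a direction, it took the 12 largest log2 ratios with a mean of at least 1 CPM. It also took those at 0 reads in 1 library, the 5 deepest of each precursor class and those with shared seeds. Both arms of shifted precursors entered, as did member arms of 1 precursor with 100 reads summed over the arms. Those at the minimum and those of the human-numbered list were included too. Any other miRNA or precursor named, such as the remaining higher members, miR-9769-3p, mir-7687 and mir-3098, was chosen after its values were seen. Results of 1 precursor that counts among the members are not reported here.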

Additional observations from a re-analysis of the deposited data

How the results depend on the processing

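No paired analysis was possible because each group has 1 library. With TMM factors, DESeq2 size factors, the authors' implied totals or a total without the 10 most abundant miRNAs, the counts of higher members ran from 21 to 26 and of lower members from 14 to 17, against 22 and 15, and the median log2 ratio from 0.024 to 0.14. At least 36 of the 37 called members kept their call under each scaling, with miR-3547-3p lost under DESeq2 size factors and miR-6948-3p without the 10 most abundant. The counts moved with the minimum, by construction, as fewer or more miRNAs entered: a minimum of 50 reads gave 13 higher, 100 reads gave 7 higher and 7 lower, a mean of at least 10 CPM gave 4 higher and 6 lower, and no minimum gave 28 lower. The balance of higher to lower did not hold throughout: summing the arms of a precursor gave 16 higher and 17 lower with a median of 0.0092, and a minimum of 10 reads gave 23 and 22. None of the 85 named members changed the side of 0 under any scaling or added CPM where its interval excluded 1. Adding 5 CPM before the log moved 22 of them outside their interval. The authors' totals put the members' share of reads at 0.484% in Th0 and 0.507% in Th17. Depth limits the members below 2 CPM most, where 43 of 53 intervals included 1.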
